A study of Rattus norvegicus with 15 samples.

Results

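Transcripts of 9 genes of cysteine sulfur metabolism were followed in rat liver: Mpst, Tst, Cth, Cbs, Cdo1, Csad, Ethe1, Gnmt and Bhmt. Every probe set whose gene symbol, current or former, was one of these names was taken. Each gene had 1 probe set, so no second probe set was there to check it. The array named 14217 genes in all. The 9 probe sets passed the filter on dim signals, which left 9540 genes for testing. Mpst was chosen by its measured difference between 10 mg/kg and vehicle in these same arrays, and the others because they belong to the same pathway, with earlier results known. That comparison is therefore a description for all 9 genes, with no p-value printed. Whether Mpst passed a threshold there is stated to show how its choice depended on single arrays, and supports nothing.

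Male Sprague Dawley rats from Charles River, aged 7 weeks at the start, ate a high fat diet (59% of calories as fat) and were gavaged daily for 6 weeks before their livers were taken. The control group received the vehicle, 0.5% methylcellulose, and the other groups received PF-04923503, which the labels call an ACC inhibitor, at 10 mg/kg or 30 mg/kg. All 3 groups shared the diet, and no group on ordinary chow was analysed here. There were 5 samples per group with 1 array each, and the labels do not say that each sample came from a different animal, so the spread behind each p-value is that among these 15 samples and may be technical. All values are log2 signals of a probe set, as the authors normalised them between arrays, and a difference of 1 is a doubling.

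The liver makes cysteine from methionine. In the methionine cycle the methyl donor S-adenosylmethionine is spent by methyltransferases such as Gnmt, and homocysteine is either methylated back to methionine, in liver partly by Bhmt with betaine, or passed through Cbs and Cth to cysteine. Cysteine is then oxidised by Cdo1 and decarboxylated with Csad towards taurine, used for glutathione, or broken down to sulfur that Mpst and Tst transfer between acceptors and that Ethe1 oxidises in mitochondria.

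The liver label was checked with hepatocyte markers. The mean level of the 13 measured markers lay between 13.85 and 13.89 in vehicle, 13.83 and 13.88 at 10 mg/kg, and 13.82 and 13.89 at 30 mg/kg. Most of these markers lie near the top of the scale, where the highest value of the array was 15.38, so their mean says little about differences between groups. Of the 13, 7 had higher means at 10 mg/kg and 8 at 30 mg/kg. At an unadjusted p of 0.05, 2 were lower at 10 mg/kg and 1 at 30 mg/kg (limma), against 8.79% and 10.8% of all genes. After adjustment 0 passed. Those 2 were the asialoglycoprotein receptor genes, among the dimmer of the 13 and named after their values were seen. The log2 difference from vehicle was -0.21 (10 mg/kg) and -0.11 (30 mg/kg) for Asgr1 and -0.14 and -0.13 for Asgr2. Neither gene's 10 mg/kg samples overlapped vehicle, where 2.44% of all genes had no overlap. Tat, the dimmest of the 13 and also named after its values were seen, went the other way, with 0.15 and 0.08. Over all genes, 58.2% had a lower mean at 10 mg/kg and 62.0% at 30 mg/kg. Markers of Kupffer cells and macrophages had lower means in both treated groups in 9 of 9 genes. At an unadjusted p of 0.05, 6 were lower at 10 mg/kg and 2 at 30 mg/kg (limma), against 8.79% and 10.8% of all genes. After adjustment 0 of these markers passed. Their mean level ranged from 9.03 to 9.58 in vehicle, from 8.55 to 9.23 at 10 mg/kg and from 8.44 to 9.55 at 30 mg/kg. For endothelial markers, lower in mean in 8 of 8 genes, the ranges were 8.56 to 8.73, 8.25 to 8.58 and 8.34 to 8.63. In these whole-tissue samples fewer cells of a type and less RNA per cell cannot be told apart.

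Mpst, the mercaptopyruvate sulfurtransferase that releases sulfur from a keto acid derived from cysteine, was lower in every treated sample than in every vehicle sample. Vehicle samples 1 to 5 had log2 values of 10.76, 10.60, 10.65, 10.70 and 10.72. At 10 mg/kg the values were 10.48, 10.38, 10.36, 10.32 and 10.38. At 30 mg/kg they were 10.36, 10.53, 10.32, 10.35 and 10.46. The groups sat close to each other all the same: the lowest vehicle value was 10.60 and the highest treated value 10.53, in 30 mg/kg sample 2.

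The mean log2 level of Mpst was highest in vehicle, 10.69 ± 0.06, then 10.40 ± 0.09 at 30 mg/kg and 10.38 ± 0.06 at 10 mg/kg (SD, n = 5 each). Vehicle was 1.23-fold higher than 10 mg/kg, the comparison that picked the gene. There 1 of the 9 members, Mpst, passed an adjusted p of 0.05 (limma over all genes), where 0.105% of genes did, and the groups did not overlap for 1 of 9, where 2.44% of genes had no overlap. Nothing is read from these counts, since this comparison chose the gene. With 1 array left out the log2 difference stayed between -0.32 and -0.28, and Mpst passed in 6 of 15 such fits. The arrays whose removal ended the call were numbers 1, 2 and 4 of vehicle, numbers 2, 3, 4 and 5 of the 10 mg/kg group and numbers 1 and 4 of the 30 mg/kg group.

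The 30 mg/kg samples did not enter the 10 mg/kg difference that picked Mpst. They did enter the spread behind its adjusted p there, since the arrays of all groups were fitted together. The 30 mg/kg comparison is therefore not an independent test of that choice. In the 30 mg/kg samples Mpst was again lower. Vehicle was 1.22-fold higher (95% confidence interval 1.13 to 1.31) with a limma adjusted p of 0.0979, which misses the threshold, as every gene did at this dose (0% called). By unadjusted p Mpst ranked 3 of the 9540 genes. This comparison uses the same vehicle samples as the one at 10 mg/kg, so the doses are not independent of each other. Groups did not overlap for 1 of 9 members at 30 mg/kg, again Mpst, and for 3.21% of all genes. The doses did not differ detectably from each other, with a level at 30 mg/kg 1.01-fold that at 10 mg/kg (interval 0.940 to 1.09, limma adjusted p = 0.982). Mpst had one of the smaller spreads on the array, with a pooled within-group SD of 0.071, lower than in 89.6% of genes.

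**Figure D1:**
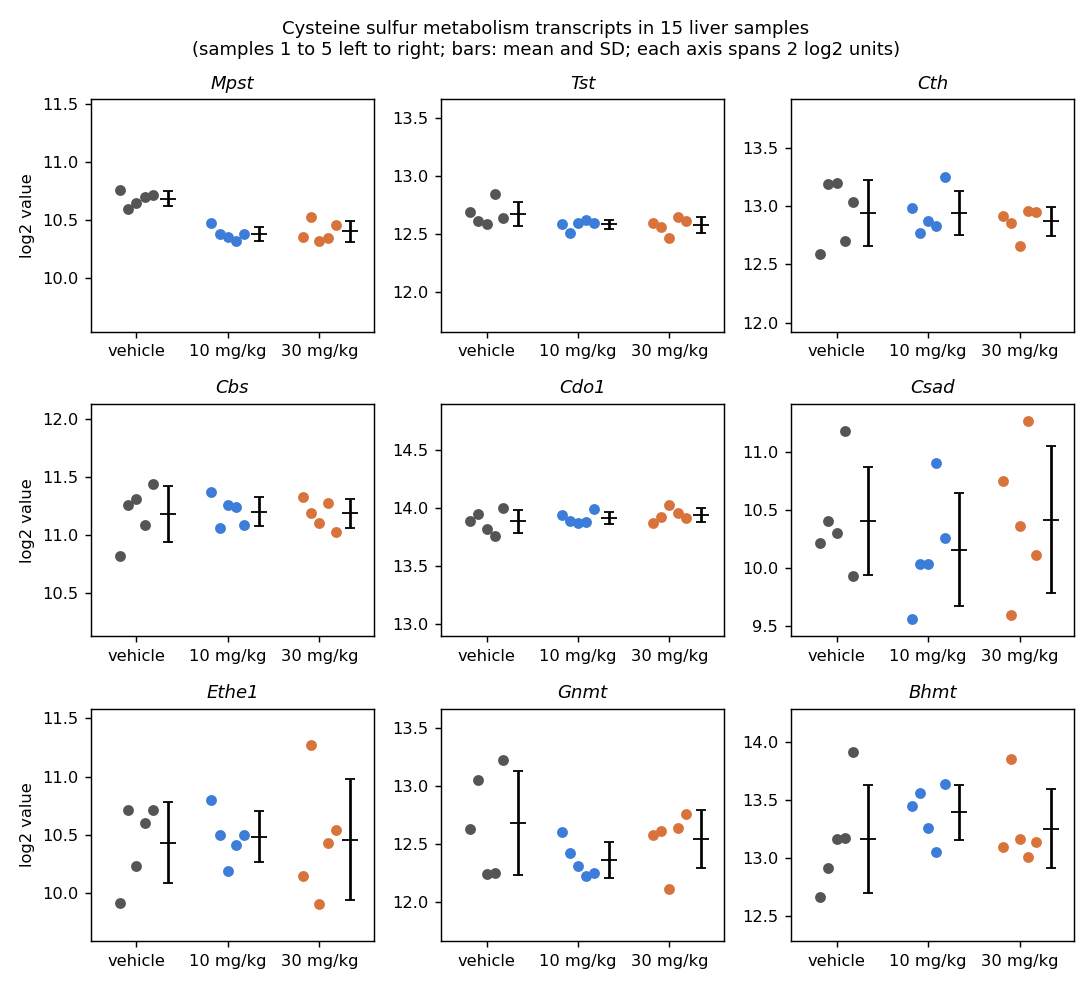
Log2 value of each of the 9 transcripts (y axis, each panel spanning the same width) in the vehicle, 10 mg/kg and 30 mg/kg groups (x axis). Points are samples 1 to 5 from left to right and bars are the mean and SD. The treated Mpst samples, at most 10.53, all lie below the vehicle samples, at least 10.60, while the groups overlap in the other 8 panels.

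The stretch of 250 bases before the annotated start of Mpst is shown because Mpst is the member that parted treated from vehicle samples. That of Cth is shown because it carries the same motif. The part of the motif in the level of either gene was not tested. Both are RefSeq sequences of build GRCr8, printed 5′ to 3′ on the gene's strand, with the E-box CACGTG in capitals. The Mpst stretch is chr7:111835943-111836192 on the plus strand, and the Cth stretch is chr2:249661067-249661316 on the minus strand.
Mpst: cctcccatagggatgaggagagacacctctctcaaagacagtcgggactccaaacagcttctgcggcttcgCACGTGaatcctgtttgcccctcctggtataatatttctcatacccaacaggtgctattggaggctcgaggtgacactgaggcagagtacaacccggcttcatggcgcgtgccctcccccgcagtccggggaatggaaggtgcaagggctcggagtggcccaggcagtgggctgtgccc
Cth: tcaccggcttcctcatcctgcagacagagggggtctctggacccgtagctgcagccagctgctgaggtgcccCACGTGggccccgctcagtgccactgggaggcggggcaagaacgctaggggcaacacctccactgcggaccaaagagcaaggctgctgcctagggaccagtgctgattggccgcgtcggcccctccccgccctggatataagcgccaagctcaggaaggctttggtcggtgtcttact

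The E-box, a site that several helix-loop-helix factors can bind, begins 179 bases before the start in Mpst and 178 bases before it in Cth. It reads the same on both strands and is found in 5.59% of the 33469 windows of this length. Of the 9 members 6 had a window (Mpst, Cth, Cbs, Csad, Gnmt and Bhmt), and 2 of the 6 held an E-box. CCAAT, searched on both strands, was in 5 of the 6 and in 34.0% of all windows. The GC box GGGCGG was in 4 of the 6 and in 30.5% of windows, and TATAAA in Bhmt alone of the 6 and in 12.9% of windows. The antioxidant response element core TGACNNNGC (10.1% of windows) and the amino acid response element core TGATGCAA (0.693%) were in none of the 6. These are matches of letters and not sites shown to be bound.

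Tst, or rhodanese, is the paralog of Mpst and its neighbour on the chromosome, and the annotated spans of the 2 genes overlap. Its vehicle samples 1 to 5 had 12.69, 12.61, 12.59, 12.85 and 12.64, the 10 mg/kg samples 12.59, 12.51, 12.60, 12.62 and 12.60, and the 30 mg/kg samples 12.60, 12.56, 12.47, 12.65 and 12.61. The 3 groups overlapped, with vehicle sample 4 the highest. Mean log2 levels were 12.68 ± 0.11 in vehicle, 12.59 ± 0.04 at 10 mg/kg and 12.58 ± 0.07 at 30 mg/kg (SD, n = 5 each), so that the neighbouring groups in this order lay within their spread. Vehicle was 1.07-fold the 30 mg/kg level (95% confidence interval 0.988 to 1.16, limma adjusted p = 0.385), an interval whose upper end overlaps that of Mpst. Whether Mpst and Tst differed in their response was not tested. Without vehicle sample 4 the log2 difference of Tst at 30 mg/kg was -0.05 in place of -0.10.

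The genes that make cysteine showed no difference between groups at this precision. Cbs, cystathionine beta-synthase, condenses homocysteine with serine. Its log2 values were 10.82, 11.26, 11.31, 11.09 and 11.44 in vehicle samples 1 to 5, 11.37, 11.06, 11.26, 11.24 and 11.09 at 10 mg/kg, and 11.33, 11.19, 11.11, 11.28 and 11.03 at 30 mg/kg. Treated values lay inside the vehicle range. Cbs at 30 mg/kg was 1.00-fold of vehicle (interval 0.862 to 1.17, limma adjusted p = 0.988).

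Cth, cystathionine gamma-lyase, splits cystathionine to cysteine and can also release hydrogen sulfide. It ran from 12.59 to 13.20 in vehicle, from 12.77 to 13.25 at 10 mg/kg and from 12.66 to 12.96 at 30 mg/kg. Its interval for 30 mg/kg over vehicle was 0.791-fold to 1.14-fold (limma adjusted p = 0.802). Cth and Cbs deviated alike over the 15 samples, with a Pearson r of 0.55, the same after subtraction of group means, and a Spearman rho of 0.53, and vehicle sample 1 was the lowest of the 15 for both genes.

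Of the oxidative branch to taurine, Cdo1 was steady and Csad was not. Cdo1, cysteine dioxygenase, had mean log2 levels of 13.88 ± 0.10 in vehicle, 13.91 ± 0.05 at 10 mg/kg and 13.94 ± 0.06 at 30 mg/kg (SD, n = 5 each). Its interval at 30 mg/kg, 0.964-fold to 1.12-fold of vehicle, was narrow (limma adjusted p = 0.614).

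Csad, cysteine sulfinic acid decarboxylase, varied more within groups than 98.1% of genes, with a pooled SD of 0.53. Vehicle samples 1 to 5 had 10.21, 10.40, 10.30, 11.18 and 9.93. The 10 mg/kg samples had 9.56, 10.03, 10.03, 10.90 and 10.26. The 30 mg/kg samples had 10.75, 9.59, 10.36, 11.26 and 10.11. Sample 4 was the highest in all 3 groups, as it also was for Tst, and in no other member did 1 number lead every group. Over all genes, 3.75% had the same number highest in every group. The labels do not say that samples of the same number share anything. The group means of Csad, 10.40, 10.16 and 10.42 in the order of dose, lay well within this spread. The interval for 30 mg/kg over vehicle ran from 0.644-fold to 1.58-fold (limma adjusted p = 0.989), so that differences within it, lower or higher, are not excluded.

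Ethe1, the mitochondrial persulfide dioxygenase, also varied widely within groups, more than 96.1% of genes. Its log2 values were 9.91, 10.71, 10.23, 10.60 and 10.71 in vehicle samples 1 to 5, 10.80, 10.50, 10.19, 10.41 and 10.50 at 10 mg/kg, and 10.14, 11.27, 9.90, 10.43 and 10.54 at 30 mg/kg. The 30 mg/kg group held both the lowest and the highest of the 15 values. Group means were 10.43, 10.48 and 10.46, and the interval at 30 mg/kg was 0.736-fold to 1.41-fold of vehicle (limma adjusted p = 0.968).

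Gnmt, which spends S-adenosylmethionine to make sarcosine from glycine, had log2 values of 12.63, 13.05, 12.24, 12.25 and 13.22 in vehicle samples 1 to 5. The 10 mg/kg samples had 12.60, 12.42, 12.31, 12.22 and 12.25, and the 30 mg/kg samples 12.58, 12.61, 12.11, 12.64 and 12.76. Vehicle samples 2 and 5 stood above all treated samples, whereas vehicle samples 3 and 4 lay among the lowest. Mean levels were 12.68 ± 0.45, 12.36 ± 0.15 and 12.54 ± 0.25 (SD, n = 5 each) in the order of dose. At 10 mg/kg its log2 difference of -0.32 was the lowest among the members, below that of Mpst, with groups that overlapped. The interval at 30 mg/kg was 0.698-fold to 1.18-fold of vehicle (limma adjusted p = 0.741).

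Bhmt, betaine-homocysteine methyltransferase, had log2 values of 12.66, 12.91, 13.16, 13.17 and 13.91 in vehicle samples 1 to 5. At 10 mg/kg they were 13.45, 13.56, 13.26, 13.05 and 13.64, and at 30 mg/kg 13.09, 13.85, 13.16, 13.01 and 13.14. Vehicle sample 5 and 30 mg/kg sample 2 were the highest, and the groups overlapped. The means were 13.16 ± 0.46, 13.39 ± 0.24 and 13.25 ± 0.34 (SD, n = 5 each), and the interval at 30 mg/kg was 0.784-fold to 1.44-fold of vehicle (limma adjusted p = 0.867). Without vehicle sample 5 the log2 difference at 30 mg/kg was 0.27 in place of 0.09, and without vehicle sample 1 it was -0.036.

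**Figure D2:**
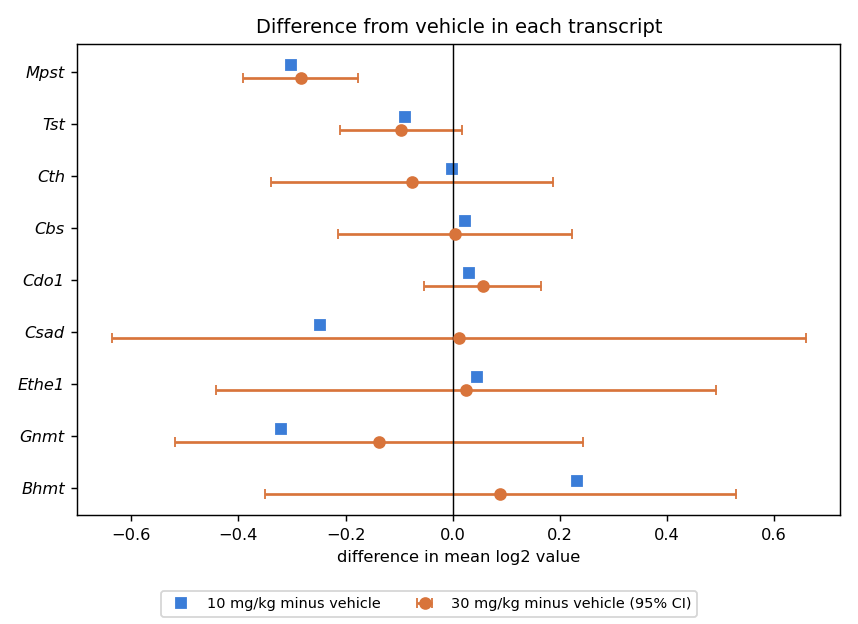
Difference from vehicle in mean log2 value (x axis) for each of the 9 transcripts (y axis) at 30 mg/kg (circles, bars are 95% confidence intervals of limma) and 10 mg/kg (squares, without intervals because that comparison picked Mpst). The interval of Mpst at 30 mg/kg, -0.39 to -0.18, is the one that leaves out 0 before adjustment, and Csad has the widest.

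Across the 9 members, the median log2 difference from vehicle was -0.0019 for 10 mg/kg and 0.0044 for 30 mg/kg, where the medians of all genes were -0.02 and -0.03. In mean, 4 members were higher and 5 lower at 10 mg/kg, and 5 were higher and 4 lower at 30 mg/kg. Over all genes, 58.2% and 62.0% had lower means at these doses. At an unadjusted p of 0.05 (limma), 1 of 9 passed at 30 mg/kg, where 16.1% of genes did. Between 30 mg/kg and 10 mg/kg 0 of 9 passed by unadjusted p, against 5.82% of genes, 0 of 9 after adjustment, against 0%, and 0 of 9 had groups without overlap, against 0.943%, with adjusted p-values from 0.909 to 0.998 (limma).

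Vehicle sample 1 held the extreme vehicle value of several members, in no case far enough from the other 4 to pass Dixon's criterion. It had the lowest vehicle value of Cth, Cbs, Ethe1 and Bhmt and the highest of Mpst. In the same sample the clock gene Bmal1 was at 5.68 and the clock output gene Dbp at 10.12, the lowest and highest of the 15 samples, where the others ran from 6.88 to 8.15 and from 6.17 to 9.42. The part of time of day in these values was not tested. Without vehicle sample 1 Mpst differed from the remaining vehicle samples by -0.28 (10 mg/kg) and -0.26 (30 mg/kg) on the log2 scale. On the control probe sets for Gapdh, the 3′ signal exceeded the 5′ signal by 0.35 to 0.44 in vehicle, 0.32 to 0.37 at 10 mg/kg and 0.30 to 0.50 at 30 mg/kg, in log2 units. This measure of RNA quality had a Pearson r of 0.61 with Mpst over the 15 arrays. The same measure had r = 0.35 for the beta-actin controls and -0.07 for the hexokinase controls, whose mean was 1.83 in vehicle, 1.93 at 10 mg/kg and 1.80 at 30 mg/kg. Its part in the difference was not tested, nor was that of the macrophage and endothelial markers.

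The genes whose levels followed Mpst most closely were found by Pearson's r over the 15 samples. The 5 nearest were Zfp105, a zinc finger gene, with r = 0.92 (rho 0.92, and r = 0.91 without the 2 samples farthest from the Mpst median), Tcea3, a transcription elongation factor, Tfrc, the transferrin receptor, Anapc5, a subunit of the anaphase-promoting complex, and Tgfbi, a matrix protein, each with r = 0.88. For orientation, the central 95% of all genes had r with Mpst between -0.58 and 0.69. Once group means were subtracted, Zfp105 kept r = 0.87 and Tcea3 0.82, while Anapc5 had 0.55 and Tfrc 0.40. After that subtraction the 5 nearest were Strbp (0.87), Zfp105, Mtg1 (0.85), Ugt2b34l1 (0.84) and Rbm18 (0.83). Zfp105 ran from 6.68 to 6.89 in vehicle, from 6.48 to 6.68 at 10 mg/kg and from 6.50 to 6.72 at 30 mg/kg, near the filter threshold of 6.10.

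None of the other members was among the nearest. Tst had r = 0.56 with Mpst, 0.21 within groups, and Csad had r = -0.14, or -0.62 within groups. Of the other sulfur genes measured, Sardh, the sarcosine dehydrogenase that oxidises the product of Gnmt, was the nearest to Mpst, with r = 0.80, or 0.78 within groups, at rank 36 of all genes. Its log2 values were 10.88, 10.54, 10.55, 10.72 and 10.65 in vehicle samples 1 to 5, 10.75, 10.39, 10.32, 10.45 and 10.32 at 10 mg/kg, and 10.48, 10.53, 10.23, 10.14 and 10.54 at 30 mg/kg. All 30 mg/kg samples lay below the vehicle samples, the nearest by less than the rounding, where 3.21% of all genes had no overlap. The 10 mg/kg sample 1 lay among the vehicle samples. Vehicle was 1.22-fold higher than 30 mg/kg (interval 1.05 to 1.41, limma adjusted p = 0.212).

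Bhmt and the enzyme that takes up its product varied together from sample to sample. Dmgdh oxidises the dimethylglycine that Bhmt forms, and of all genes it was the one most like Bhmt, with a Pearson r of 0.91 over the 15 samples, a Spearman rho of 0.81 and r = 0.91 within groups. Without the 2 samples farthest from the Bhmt median r was 0.81. Dmgdh was highest in the 2 samples with the highest Bhmt, at 11.98 in vehicle sample 5 and 12.05 in 30 mg/kg sample 2, and lowest with it in vehicle sample 1 at 11.32. Dmgdh, like Bhmt, passed no test between groups, and at 30 mg/kg was 0.990-fold of vehicle (interval 0.814 to 1.20, limma adjusted p = 0.969). Ethe1 had r = 0.64 to Bhmt (Spearman rho 0.50) and 0.75 to Dmgdh (rho 0.70). The 30 mg/kg sample 2 had the highest Ethe1 and Dmgdh of the 15 samples and a high Bhmt. How far it carries the r of Ethe1 was not tested. These pairs were picked after their values were seen, and all points share arrays and normalisation.

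Csad ran opposite to Chdh, the choline dehydrogenase that starts the making of betaine. Their r was -0.87 over the 15 samples, rho -0.90 and r -0.89 within groups, and 1 gene of the 9540 was more opposed to Csad. Chdh spanned 11.30, in 30 mg/kg sample 4 where Csad was highest, to 11.78, in 30 mg/kg sample 2 where Csad was close to its lowest. Without the 2 samples farthest from the Csad median r was -0.86. This pair too was picked after its values were seen.

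**Figure D3:**
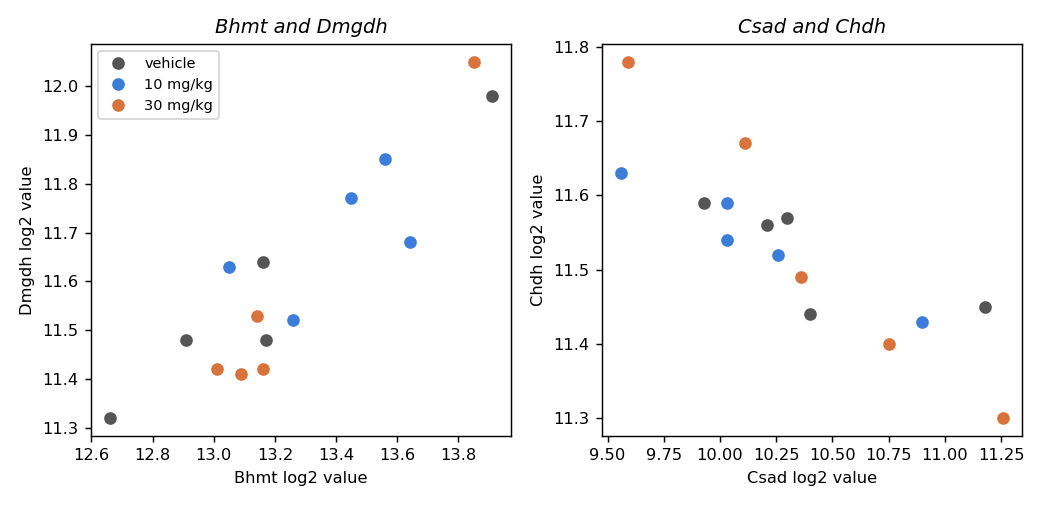
Log2 values of Dmgdh against Bhmt and of Chdh against Csad in the 15 samples, coloured by group, each point being 1 sample. The groups are mixed along both trends, with r of 0.91 and -0.87.

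Around the 9 members, 67 other genes of sulfur metabolism were listed in 6 groups, of which 60 were measured. Of these 0 passed an adjusted p of 0.05 in any comparison (limma). By an unadjusted p of 0.05, 5 were higher and 12 lower at 10 mg/kg, against 4.49% and 8.79% of all genes, and at 30 mg/kg 4 were higher and 10 lower, against 5.27% and 10.8%. Their median log2 difference was 0.02 for the lower dose and -0.01 for the higher. The lists were chosen with earlier results of these data known, so the p-values of their genes are not free of that choice.

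Of 8 measured genes of sulfate activation and transport, 4 were lower and 0 higher at an unadjusted p of 0.05 at 10 mg/kg, and 3 lower and 0 higher at 30 mg/kg (limma). They had a median log2 difference of -0.10 and -0.16. Of all genes, 8.79% were lower and 4.49% higher by unadjusted p at 10 mg/kg, and 10.8% and 5.27% at 30 mg/kg. Slc13a4, a sodium-sulfate cotransporter, had 10.60, 11.14, 10.92, 11.07 and 10.72 in vehicle samples 1 to 5, 10.28, 10.08, 10.12, 10.17 and 10.11 at 10 mg/kg, and 10.17, 9.87, 9.46, 10.14 and 10.56 at 30 mg/kg. No treated value reached the lowest vehicle value, where 2.44% (10 mg/kg) and 3.21% (30 mg/kg) of all genes had no overlap with vehicle. Vehicle was 1.67-fold higher than 10 mg/kg (interval 1.32 to 2.11, limma adjusted p = 0.0943) and 1.81-fold higher than 30 mg/kg (1.43 to 2.28, adjusted p = 0.0979). With 1 array left out, Slc13a4 passed at 10 mg/kg in 1 of 15 fits, that without 30 mg/kg sample 3 (limma adjusted p = 0.0405). It passed at this dose in 1 of 9 other alternatives, the fit of the 2 groups alone (limma adjusted p = 0.0255). At 30 mg/kg it passed in 0 of 15 and 0 of 9. Bpnt2, a phosphatase of sulfation by-products, had the highest difference of the list at 30 mg/kg, 1.03-fold of vehicle (limma adjusted p = 0.729).

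The methionine cycle and one-carbon list had 21 measured genes, 3 higher and 4 lower at an unadjusted p of 0.05 at 10 mg/kg and 1 higher and 2 lower at 30 mg/kg (limma), with medians of 0.05 and 0.0057. The shares of all genes were 4.49% higher and 8.79% lower at 10 mg/kg, and 5.27% and 10.8% at 30 mg/kg. Mat2a, the S-adenosylmethionine synthetase of non-hepatocyte and growing cells, was at 9.01, 8.69, 8.82, 9.20 and 8.21 in vehicle samples 1 to 5 and between 8.15 and 8.45 at 30 mg/kg. Vehicle sample 5 lay among the treated samples, and the other 4 vehicle samples lay above all of them. The same array was at 11.71 for the desaturase gene Scd, where the other vehicle samples ran from 6.82 to 8.94 and the treated samples from 10.77 to 14.14. Without it limma called 21 genes in place of 10 at 10 mg/kg and 5 in place of 0 at 30 mg/kg. Vehicle was 1.43-fold higher than 30 mg/kg (interval 1.17 to 1.75, limma adjusted p = 0.151), and 1.58-fold without vehicle sample 5 (limma adjusted p = 0.0269). That sample had the lowest vehicle value of Mat2a, so leaving it out could only enlarge the difference. Mat2a passed at 30 mg/kg in 1 of 15 fits with 1 array left out, this one, and in 0 of 9 other alternatives. Mat1a, the form of mature hepatocytes, was 1.05-fold of vehicle (interval 0.935 to 1.18, limma adjusted p = 0.685). Nnmt, which methylates nicotinamide, had the highest difference of the list, 1.26-fold of vehicle at 30 mg/kg (interval 1.01 to 1.58, limma adjusted p = 0.300).

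Of 10 genes of cysteine and taurine catabolism, 1 was higher and 3 lower at an unadjusted p of 0.05 at each dose (limma). Among all genes 4.49% were higher and 8.79% lower at 10 mg/kg, and 5.27% and 10.8% at 30 mg/kg. Fmo1, a flavin monooxygenase that can make taurine from hypotaurine, averaged 10.83 ± 0.56 in vehicle, 9.74 ± 0.56 at 10 mg/kg and 10.00 ± 0.50 at 30 mg/kg (SD, n = 5 each). Its groups overlapped, and vehicle was 2.13-fold higher than 10 mg/kg (interval 1.35 to 3.36, limma adjusted p = 0.166) and 1.78-fold higher than 30 mg/kg (1.13 to 2.80, adjusted p = 0.219). Got1, the cytosolic aspartate aminotransferase that can turn cysteine into the substrate of Mpst, had the highest difference of the list at 30 mg/kg, 1.18-fold of vehicle (interval 0.946 to 1.48, limma adjusted p = 0.445).

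For sulfide oxidation 5 of 6 genes were measured. At either dose 0 passed an unadjusted p of 0.05 (limma), against 13.3% of all genes at 10 mg/kg and 16.1% at 30 mg/kg. The medians were 0.10 at 10 mg/kg and -0.17 at 30 mg/kg. Tstd1, a small thiosulfate sulfurtransferase, was at 1.63-fold of vehicle at 10 mg/kg (interval 0.982 to 2.71, limma adjusted p = 0.393) and 1.18-fold at 30 mg/kg (0.711 to 1.96, adjusted p = 0.772). Tstd3, of the same domain family, had the lowest difference at 30 mg/kg, with vehicle 1.16-fold higher (limma adjusted p = 0.572).

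In glutathione synthesis 10 genes were measured, 1 higher and 0 lower at an unadjusted p of 0.05 at 10 mg/kg and 2 higher and 1 lower at 30 mg/kg (limma), with medians of -0.03 and 0.01. The shares of all genes were 4.49% higher and 8.79% lower at 10 mg/kg, and 5.27% and 10.8% at 30 mg/kg. Gclc, the catalytic subunit of the rate-limiting ligase, had the lowest difference of this list at 30 mg/kg, with vehicle 1.19-fold higher (interval 0.977 to 1.46, limma adjusted p = 0.367). Ggt1, which cleaves glutathione outside the cell, had the highest, 1.18-fold of vehicle (1.02 to 1.36, limma adjusted p = 0.257), at a level near the filter threshold. Of 10 genes of cysteine and cystine transport and desulfuration 6 were measured. At an unadjusted p of 0.05 (limma) 1 of them was lower and 0 higher at each dose, against the same shares of all genes. The lower gene was Slc1a4, a neutral amino acid transporter, with vehicle 1.37-fold and 1.26-fold higher than 10 and 30 mg/kg (limma adjusted p = 0.247 and 0.297). Its mean log2 levels, 6.53 in vehicle, 6.08 at 10 mg/kg and 6.195 at 30 mg/kg, lay near the filter threshold of 6.10. Its vehicle samples alone were enough to pass the filter. Ctns, the lysosomal cystine exporter, had the highest difference at 30 mg/kg, 1.02-fold of vehicle (limma adjusted p = 0.856).

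**Figure D4:**
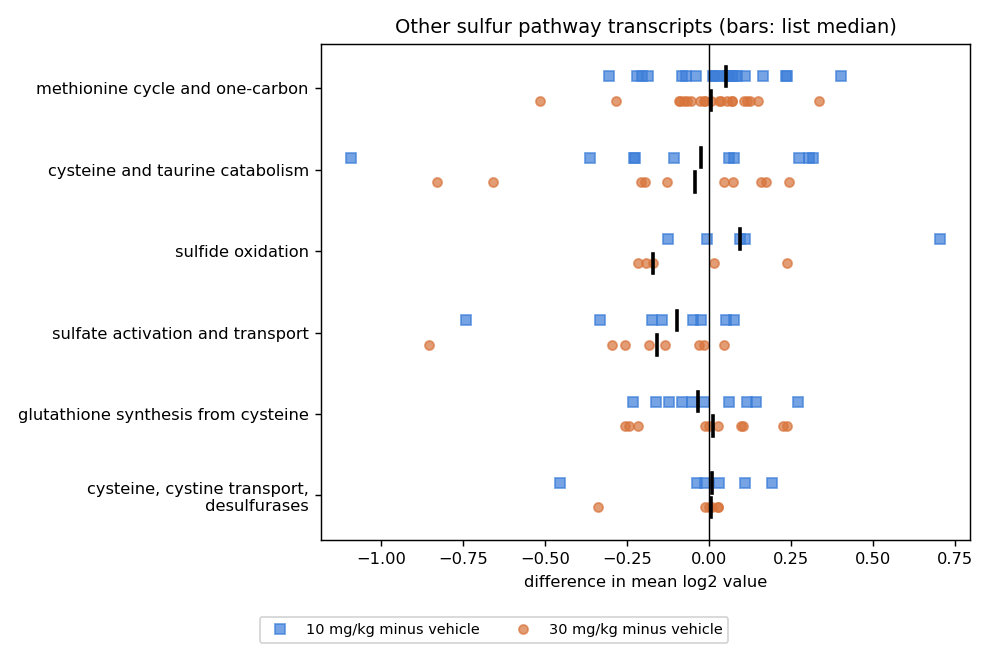
Difference from vehicle in mean log2 value (x axis) of the 60 measured genes in 6 lists of sulfur metabolism (y axis), at 10 mg/kg (squares) and 30 mg/kg (circles), with black bars at each list's median. Fmo1 at -1.09 and Slc13a4 at -0.74 are the lowest points at 10 mg/kg, and Tstd1 at 0.71 is the highest.

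Markers of liver zones differed in mean, with 0 called. For the counts of means below, 58.2% of all genes had a lower mean at 10 mg/kg and 62.0% at 30 mg/kg. Of 9 periportal markers 8 had higher means at each dose, with medians of 0.18 and 0.15 and 3 of 9 higher at an unadjusted p of 0.05 at each dose (limma), against 4.49% and 5.27% of all genes. Of 6 measured perivenous markers 4 had lower means at 10 mg/kg and 5 at 30 mg/kg, with medians of -0.27 and -0.30, and 2 and 1 of 6 were lower at an unadjusted p of 0.05 (limma), against 8.79% and 10.8% of all genes. The mean periportal level ranged from 11.03 to 11.50 in vehicle, 11.38 to 11.54 at 10 mg/kg and 11.33 to 11.51 at 30 mg/kg, so that the groups overlapped, and the part of zonation in the values of the sulfur genes was not tested. Among other cell types, stellate cell and matrix markers had lower means in 8 of 8 genes at 10 mg/kg and 5 of 8 at 30 mg/kg, and blood cell markers in 5 of 6 and 4 of 6. Of the cholangiocyte markers 1 of 5 on the array, Epcam, passed the filter.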

How the data were processed

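Per the labels, total RNA of frozen liver was labelled by a one-cycle kit and hybridised to Affymetrix arrays. The deposited values are log2 signals per probe set. Per the submitters' processing notes, the tools were RMA, GCRMA 2.12.1 and limma 2.14.7, with no role given to each, so it is unknown which of them summarised the probes. Such values compress changes of dim probe sets and hide a shift shared by most genes. Array medians lay between 6.08 and 6.12, and 0 pairs of arrays were identical. The labels name no scan date or batch, and none was fitted. Precision is limited by the number of arrays.

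Of 31099 probe sets, 20826 carried 1 gene symbol, 436 several and 9780 none, and 57 were controls. Symbols were updated through GRCr8 gene entries, found for 20758. Probe sets with at least 5 values above the median of all values were kept, and the brightest stood for its gene. All 15 arrays entered 1 model of group means (limma 3.58.1, R 4.3.3), with Benjamini-Hochberg adjustment over 9540 genes and a threshold of 0.05. The procedure was tested on simulated data.

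The members and lists were chosen with earlier results of these data known. Named were every member, the highest and lowest gene of each sulfur list at 30 mg/kg, any called gene of those lists (0 were called) and the 5 genes most like Mpst, with and without group means subtracted. Dmgdh, Chdh, Sardh, Mat1a, Asgr1, Asgr2, Tat, Scd, Bmal1 and Dbp were named after their values were seen. Alternatives covered the filter, probe sets, scaling, variance model, samples fitted, a replicate block and leaving out each array.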

Additional observations from a re-analysis of the deposited data

Results flagged for a closer look

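In 63 groups of 5 samples, for the 9 members and 12 named genes of the lists, 6 held a sample far from the other 4 by Dixon's criterion, where chance flags about 1 in 20 groups. Gnmt was at 12.11 in 30 mg/kg sample 3, below the others at 12.58 to 12.76. Bhmt was at 13.85 in 30 mg/kg sample 2, above the others at 13.01 to 13.16. Ggt1 was at 5.83 in vehicle sample 4, where the others ran from 6.08 to 6.13, and at 5.89 in 30 mg/kg sample 1, where the others ran from 6.34 to 6.49. Ctns was at 7.75 in 30 mg/kg sample 2 against 7.58 to 7.62, and Tstd3 at 7.93 in 10 mg/kg sample 3 against 6.92 to 7.20.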

How the results depend on the processing

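At 10 mg/kg against vehicle, 10 genes were called by limma, 3 without a filter, 16 with all probe sets as features and 0 with the replicate number as a block (limma, 1212 at an unadjusted p under 0.05). Mpst, the 1 called member, was called under 6 of 9 such alternatives, and 0 members were called without a filter, with the 2 groups alone or with the replicate block. The count of other sulfur genes was 1 with the 2 groups alone. With 1 array left out these counts ran from 0 to 26, 0 to 1 and 0 to 1. At 30 mg/kg against vehicle 0 genes were called and 10 with all probe sets as features, and leaving out 1 array gave 0 to 5 genes and 0 to 1 other sulfur genes. Mpst kept its direction at both doses in every alternative run, with log2 differences at 30 mg/kg from -0.31 to -0.25 and limma adjusted p from 0.0602 to 0.229. Its treated and vehicle samples did not overlap, so leaving out 1 array could not have turned it. Nothing is read from the kept direction. The split of the 10 calls was 6 higher, and 7 of 10 with quantile normalisation.

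Of 27 member differences, 13 changed sign under some alternative, and of 24 differences of the named genes of the sulfur lists 5 did. Below, Tstd1, Tstd3, Ctns and Gclc are genes of those lists and not members. Quantile normalisation turned Cth (0.013) and Tstd3 (0.0084) at 10 mg/kg and Tst between the doses (0.019), and centring on the median turned Cbs (-0.010) and Csad (-0.0029) at 30 mg/kg. With 1 array left out, log2 differences at 10 mg/kg ran from -0.092 to 0.062 for Cth, -0.069 to 0.087 for Cbs, -0.00033 to 0.059 for Cdo1, -0.085 to 0.12 for Ethe1, -0.0069 to 0.070 for Ctns, -0.18 to 0.068 for Tstd3 and -0.12 to 0.039 for Gclc. At 30 mg/kg they ran from -0.087 to 0.069 for Cbs, -0.20 to 0.22 for Csad, -0.18 to 0.16 for Ethe1, -0.060 to 0.27 for Bhmt, -0.012 to 0.48 for Tstd1 and -0.0033 to 0.060 for Ctns. Between the doses they ran from -0.013 to 0.041 for Mpst, -0.026 to 0.019 for Tst, -0.12 to 0.0029 for Cth, -0.055 to 0.024 for Cbs and -0.22 to 0.12 for Ethe1. The cause was not tested.

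Sample numbers are shared across groups. The correlation of same-numbered samples' deviations from their group means ran from -0.071 to 0.20 over 15 pairs, 2 of them over 0.1, with 0.098 to 0.20 for the 3 pairs of number 4, and 3 of 15 arrays correlated best with their own number. The numbers were therefore not used to pair samples, and whether they mark anything shared is not known. With the replicate block, Mpst differed by -0.30 on the log2 scale at 10 mg/kg and was not called.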
